A study of Mus musculus with 8 samples.

Results

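The 9 regulators described here are transcription factors and cofactors listed together as fibre-type factors of skeletal muscle: *Six4*, *Eya1*, *Eya4*, *Tbx15*, *Sox6*, *Nfatc1*, *Irx3*, *Irx5* and *Prox1*. They were taken by gene symbol from the 16686 genes that had counts in the deposited table, and all 9 were found. Total RNA of the tibialis anterior (TA), a fast-twitch muscle of the lower leg, had been enriched for mRNA and sequenced from 4 wild-type (WT) and 4 *Mybpc2* knockout (C2-/-) mice, with 1 library per mouse. All 8 mice were males on the FVBN background, labelled as 22 months of age, and no treatment is given. The growth protocol in the labels gives 2 months instead, which disagrees with the age label and the dissection protocol. *Mybpc2* encodes fast skeletal myosin binding protein-C, a thick-filament protein. In C2-/- mice a Neo cassette between LoxP sites stands in place of exons 2 to 22, so the knockout is not limited to muscle or to old age. The comparison addressed which RNAs differ in old fast-twitch muscle that lacks this protein.

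Fast fibres owe their gene programme to SIX-family homeodomain proteins, which bind DNA, and to their EYA partners, which carry the activating domain and a phosphatase. Tbx15, a T-box factor, is needed for glycolytic fibres, and Sox6, an HMG-box protein of the SoxD group, represses slow-fibre genes in fast fibres. The opposite arm holds Nfatc1, which enters the nucleus after slow-type nerve activity when calcineurin has dephosphorylated it, and Prox1, a prospero homeodomain factor of slow fibres that is also the defining factor of lymphatic endothelium. Irx3 and Irx5 are Iroquois homeodomain factors known from the patterning of heart and limb, and no role in fibre type was assumed for them here.

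Each library held between 25425993 and 29747692 expected counts. Levels are given as CPM, which are counts per 1e6 library counts after scaling by the TMM factors of edgeR. *Mybpc2* lay between 4964 and 7392 CPM in WT mice and between 3.85 and 38.4 CPM in C2-/- mice, so no library went against its label. Fibre markers were high in every mouse (*Ckm*, *Acta1*, *Des*, *Mylpf* and *Myh4* summed to between 123900 and 166400 CPM in WT and between 126700 and 143900 CPM in C2-/- mice), and the slow myosin gene *Myh7* lay under 3 CPM in all but WT replicate 4. WT replicate 2 stood apart from the rest. A chi-square over genes, divided by its degrees of freedom, was between 101 and 174 for each pair that held it and between 28.9 and 99.6 for the other pairs. WT replicates 2 and 4 and C2-/- replicate 2 had high *Fos*, an immediate early gene, at 70.9, 245 and 123 CPM, against at most 7.81 CPM in the other mice.

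Per transcript length, the 9 regulators spanned a wide range of levels. On the authors' TPM scale, which allows levels of different genes to be compared, *Tbx15* was the highest of the 9, with a median of 235 TPM over the 8 mice. *Sox6* followed at 34.9 and *Nfatc1* at 34.1 TPM. The next group was *Irx3* at 15.6, *Eya4* at 14.1 and *Eya1* at 12.1 TPM. *Six4* had 5.25, *Irx5* 0.82 and *Prox1* 0.115 TPM. Neighbours in this order differed in every mouse and without overlap of their ranges, except for *Sox6* and *Nfatc1*, *Irx3* and *Eya4*, and *Eya4* and *Eya1*, whose ranges overlapped. *Tbx15* had a median above that of 97.2% of the genes in the table, with its lowest value at 162 TPM. The fast myosin gene *Myh4* had a median of 14700 TPM, and *Myh7* had 0.535 TPM.

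**Figure D1:**
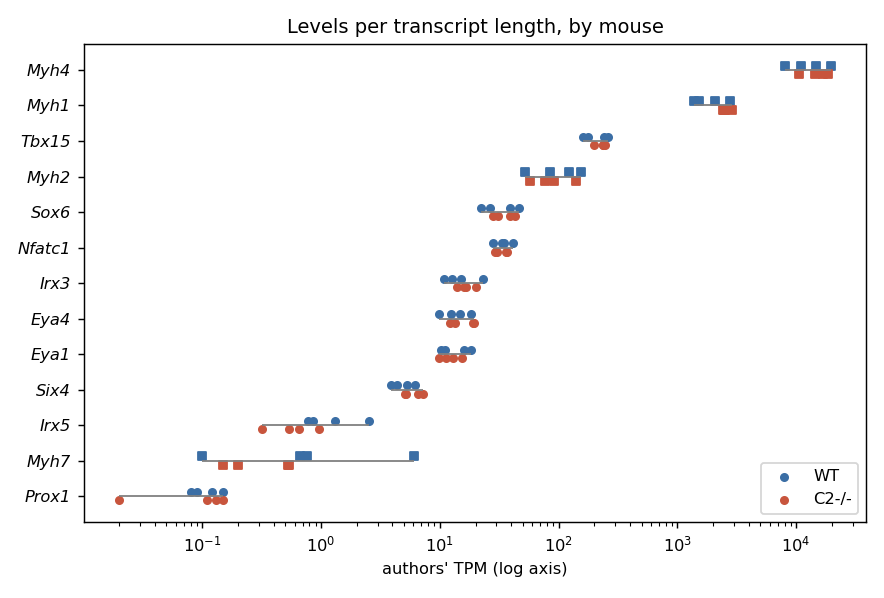
The authors' TPM of the 9 regulators (circles) and of 4 myosin heavy chain genes (squares) on a log axis, with 1 point per mouse (WT blue, C2-/- red) and a grey line from the lowest to the highest mouse. *Tbx15* lies between 162 and 261 TPM and *Prox1* between 0.02 and 0.15 TPM.

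No regulator was called different between the genotypes. Of the 9, 8 had enough counts for edgeR's default filter, and *Prox1* did not. In C2-/- mice 5 of the 8 were higher and 3 were lower, and for 7 of the 8 the absolute log2 fold change was under 0.2. The median log2 fold change of the 8 was 0.02, beside −0.02 over all 12542 genes tested. By the quasi-likelihood test of edgeR, with p-values adjusted by the Benjamini-Hochberg method over all genes tested, 0 of the 8 had an adjusted p under 0.05, where 0.0319% of all genes had one. Without adjustment, 1 of the 8, *Irx5*, had a p under 0.05, where 5.29% of all genes did, and 0 of the 8 had CPM that did not overlap between the genotypes, where 3.38% of all genes had. In bulk muscle, fewer cells of a type and less RNA per cell cannot be told apart in any of these levels.

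**Figure D2:**
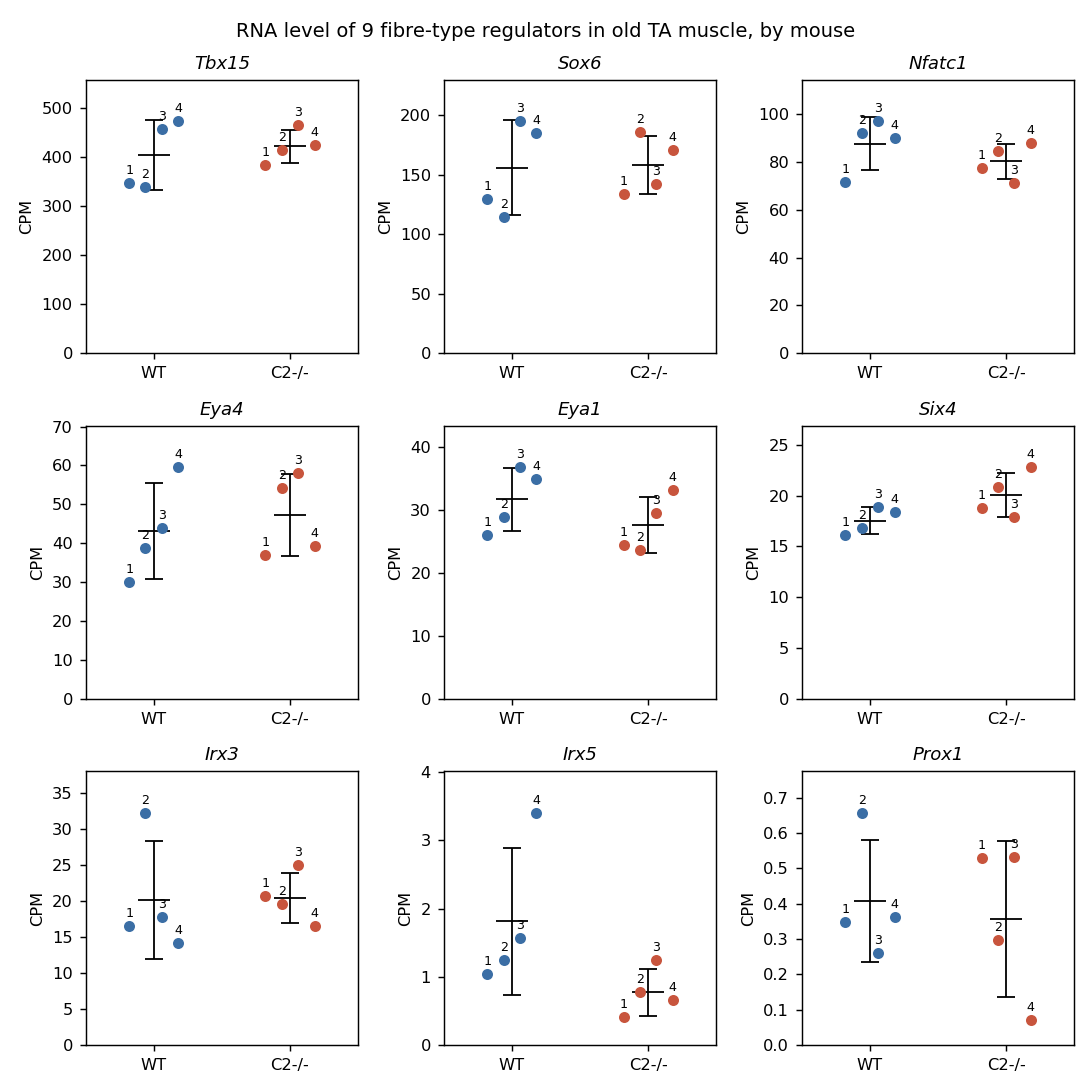
CPM of each regulator in the 4 WT (blue) and 4 C2-/- mice (red), with replicate numbers, the mean (wide bar) and the SD (whiskers, n = 4), each panel starting at 0. The genotypes overlap in all 9 panels, and the widest separation is that of *Irx5*, at 1.81 against 0.774 CPM on average.

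Among the fast-fibre factors outside the SIX-EYA network, *Tbx15* was at 347, 339, 459 and 473 CPM in WT replicates 1 to 4. In C2-/- replicates 1 to 4 it was at 384, 415, 465 and 425 CPM. The C2-/- mice all lay within the WT range, whose lower end was set by WT replicates 1 and 2, and the difference on the log2 scale was 0.06 (SE 0.14, 95% confidence interval −0.25 to 0.37, Benjamini-Hochberg adjusted p = 0.987, edgeR quasi-likelihood). *Sox6* was at 130, 115, 195 and 185 CPM in WT and at 134, 186, 142 and 171 CPM in C2-/- mice. Both genotypes held mice near the low end and mice near the high end, and the C2-/- values again lay inside the WT range. For *Sox6* the log2 fold change was 0.02 (SE 0.19, interval −0.40 to 0.44, adjusted p = 0.998). A list of T-box, SoxD and Prospero factors holds *Tbx15*, *Sox6* and *Prox1* themselves beside related genes. Of its 8 genes all but *Prox1* were tested. Of these 7, 6 were higher, *Tbx15* and *Sox6* among them, 1 was lower, and 0 had an unadjusted p under 0.05. *Tbx1* was lower, at 236 ± 48.8 CPM in C2-/- and 322 ± 125 CPM in WT mice (SD, n = 4), with a log2 fold change of −0.45 (SE 0.25), and its highest value, 501 CPM, was that of WT replicate 2, without which the log2 fold change was −0.15. *Sox5* was at 0.193 to 0.543 CPM in WT and 0.446 to 1.21 CPM in C2-/- mice, a log2 fold change of 0.95 with an SE of 0.48 that was 0.50 without C2-/- replicate 3, and *Sox13* had a log2 fold change of 0.06 with an SE of 0.14.

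In the SIX-EYA pair, the DNA-binding partner *Six4* was at 16.1, 16.8, 18.9 and 18.4 CPM in WT replicates 1 to 4. In C2-/- replicates 1 to 4 it was at 18.8, 20.8, 17.9 and 22.8 CPM. The highest values were those of C2-/- replicates 4 and 2, while C2-/- replicates 1 and 3 lay among the WT mice. *Six4* was the regulator with the smallest spread over the 8 mice, an SD of 0.16 on the log2 scale, below which lay 18.5% of the genes tested. Its log2 fold change was 0.19 (SE 0.12, interval −0.07 to 0.46, adjusted p = 0.968), and the interval leaves out a change larger than 0.46 in either direction. The coactivator *Eya1* was at 25.99, 28.9, 36.8 and 35.0 CPM in WT and at 24.4, 23.7, 29.5 and 33.1 CPM in C2-/- mice. C2-/- replicates 1 and 2 were the lowest of the 8 and WT replicates 3 and 4 the highest, with the other mice mixed between them. For *Eya1* the log2 fold change was −0.19 (SE 0.15, interval −0.54 to 0.15, adjusted p = 0.968). *Eya4* was at 30.2, 38.9, 43.8 and 59.5 CPM in WT and at 37.1, 54.2, 58.2 and 39.3 CPM in C2-/- mice. Its values spread 1.97-fold from WT replicate 1 to WT replicate 4, so that the range of the WT mice held all C2-/- mice. For *Eya4* the log2 fold change was 0.13 (SE 0.22, interval −0.36 to 0.62, adjusted p = 0.983).

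A list of the SIX-EYA-DACH network holds these 3 genes and their relatives. All 9 genes listed were tested, 7 were higher and 2 lower, and 0 had an unadjusted p under 0.05, with a median log2 fold change of 0.04 and summed levels of 119 to 162 CPM in WT and 126 to 148 CPM in C2-/- mice. *Six2* had a log2 fold change of −0.37 (SE 0.26), *Eya2* one of 0.40 (SE 0.22) and *Six5* one of 0.12 (SE 0.24). *Six2* was highest in WT replicate 4, at 19.7 CPM, and without that mouse its log2 fold change was −0.06.

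On the calcineurin arm, *Nfatc1* was at 71.5, 92.2, 97.0 and 90.0 CPM in WT and at 77.6, 84.7, 71.1 and 87.8 CPM in C2-/- mice. The 3 highest values were WT and the lowest was C2-/- replicate 3, which lay beside WT replicate 1. The log2 fold change was −0.13 (SE 0.13, interval −0.41 to 0.15, Benjamini-Hochberg adjusted p = 0.968, edgeR quasi-likelihood). All 15 genes of a calcineurin-NFAT list (NFAT factors, calcineurin subunits, Rcan inhibitors and calsarcins) were tested, 7 were higher and 8 lower, and 0 had an unadjusted p under 0.05. Their log2 fold changes lay between −0.25 and 0.22, with a median of −0.02. Of the 3 with the smallest p, the NFAT factor *Nfatc2* was at −0.22 (SE 0.16), the calcineurin subunit *Ppp3cc* at −0.15 (SE 0.11), and the calcineurin-binding inhibitor *Cabin1* at 0.19 (SE 0.12).

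*Irx5* was the regulator with the largest difference. It was at 1.04, 1.24, 1.57 and 3.402 CPM in WT replicates 1 to 4, from 27, 34, 42 and 94 counts. In C2-/- replicates 1 to 4 it was at 0.416, 0.781, 1.24 and 0.659 CPM, from 11, 21, 35 and 19 counts. WT replicate 4 was far above the other WT mice, and C2-/- replicate 3 reached the level of WT replicate 2, so the genotypes overlapped. The log2 fold change was −1.22 (SE 0.45, interval −2.23 to −0.22), with edgeR p-values of 0.0217 before and 0.849 after adjustment, and the two-sided exact permutation test gave p = 0.0857 where 4 against 4 mice allow no p below 0.0286. Without WT replicate 4 it was −0.71 (edgeR unadjusted p = 0.109), without C2-/- replicate 1 −1.01 (edgeR unadjusted p = 0.0589) and without C2-/- replicate 4 −1.15 (edgeR unadjusted p = 0.0541), so each of these 3 mice decided whether the unadjusted p passed 0.05. Without the 3 mice with high *Fos* it was −0.75 (edgeR unadjusted p = 0.198).

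*Irx3*, which lies 550.3 kb from *Irx5* on chromosome 8, had the smallest log2 fold change of the 8. It was at 16.5, 32.2, 17.8 and 14.2 CPM in WT and at 20.7, 19.5, 25.04 and 16.6 CPM in C2-/- mice. The highest value was that of WT replicate 2, the library that stood apart, and the other 3 WT mice lay with C2-/- replicate 4 at the low end. The log2 fold change was 0.02 (SE 0.25, interval −0.53 to 0.56, adjusted p = 0.998). Without WT replicate 2 it was 0.35 (edgeR unadjusted p = 0.045). Over the 8 mice *Irx3* and *Irx5* had a Pearson r of −0.24 (exact permutation p = 0.564, 0.687 after adjustment) and a Spearman rho of −0.21 (exact permutation p = 0.619, 0.788 after adjustment). Of the 6 Iroquois genes, 4 were in the table. *Irx1* had at most 10 counts and *Irx2* at most 1 count in any mouse, and neither was tested.

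*Prox1* was close to the limit of detection. It had 9, 18, 7 and 10 counts in WT replicates 1 to 4 and 14, 8, 15 and 2 counts in C2-/- replicates 1 to 4. These are 0.347, 0.657, 0.261 and 0.362 CPM in WT and 0.53, 0.298, 0.532 and 0.0693 CPM in C2-/- mice. C2-/- replicate 4 lay under the floor of 3 counts, which is 0.107 CPM in that library and covers counting error only, and the highest value was that of WT replicate 2. The two-sided exact permutation test gave p = 0.686. At counts this low a difference can be missed, and the size of difference that could have been seen was not computed. Of the 5 lymphatic endothelial markers listed, 4 were tested and 0 had an unadjusted p under 0.05, with summed levels of 13.9 to 26.7 CPM in WT and 17.7 to 20.1 CPM in C2-/- mice. Whether the few *Prox1* counts came from fibres or from lymphatic vessels was not tested.

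**Figure D3:**
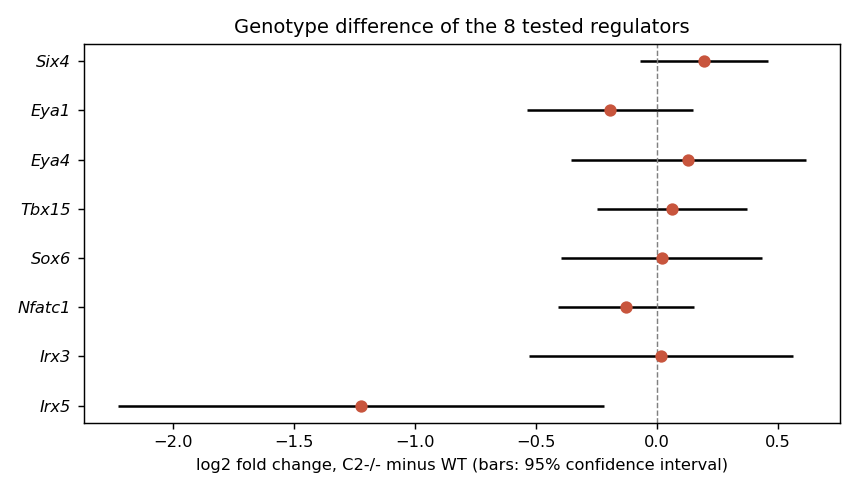
Log2 fold change (C2-/- minus WT) of the 8 tested regulators, as points, with the 95% confidence interval from edgeR as bars and a dashed line at 0. The interval of *Irx5*, −2.23 to −0.22, leaves out 0, and the other 7 intervals hold it.

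Genes of fast and slow fibres were compared in the same fit. Of 14 fast-fibre genes, 14 were tested, 7 were higher and 7 lower, 0 had an unadjusted p under 0.05, and their median log2 fold change was −0.0029. *Myh4*, the IIb myosin, was at 27810, 40570, 45540 and 67070 CPM in WT and at 35620, 57430, 54770 and 45450 CPM in C2-/- mice, a log2 fold change of 0.09 (SE 0.26). *Myh1*, the IIx myosin, had one of 0.35 (SE 0.18), *Atp2a1*, the calcium pump of fast fibres, −0.18 (SE 0.14), and *Casq1*, their calsequestrin, 0.13 (SE 0.19). *Myh2*, the IIa myosin, had one of −0.24 (SE 0.32). No unadjusted p of these 5 was under 0.05.

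Of 12 slow-fibre genes, 12 were tested, 9 were lower and 3 higher in C2-/- mice, with a median log2 fold change of −0.37. Among all 12542 genes tested, 6804 were lower. An unadjusted p under 0.05 was found for 2 of the 12, *Myl2* and *Myh7*, where 5.29% of all genes had one. An adjusted p under 0.05 was found for 0 of the 12, where 0.0319% of all genes had one. *Myl2*, the slow regulatory light chain, was at 1.35, 1.86, 1.34 and 4.13 CPM in WT and at 0.833, 0.372, 0.568 and 0.971 CPM in C2-/- mice. Every C2-/- mouse was below every WT mouse, where 3.38% of all genes tested did not overlap between the genotypes in either direction. The log2 fold change of *Myl2* was −1.66 (SE 0.45, unadjusted p = 0.00402 and adjusted p = 0.615, edgeR). *Myh7* was at 2.62, 0.365, 2.05 and 20.9 CPM in WT and at 1.86, 0.446, 1.74 and 0.624 CPM in C2-/- mice. WT replicate 4, the mouse with the highest *Irx5*, also had the highest *Myl2* and *Myh7*, and without it the log2 fold change of *Myh7* moved from −2.47 to −0.51 (edgeR unadjusted p = 0.458) and that of *Myl2* to −1.13 (edgeR unadjusted p = 0.0151). Without the 3 mice with high *Fos* neither passed, with *Myl2* at −0.76 (edgeR unadjusted p = 0.111) and *Myh7* at −0.73 (edgeR unadjusted p = 0.147). For *Myh7*, limma-voom gave −1.38 (unadjusted p = 0.270), and the unadjusted edgeR p was also above 0.05 without C2-/- replicate 2 (0.0784) or 4 (0.0797). *Tnnc1*, the slow troponin C, was highest in the same mouse, at 3.62 CPM, and had a log2 fold change of −1.04 (SE 0.61) that was −0.40 without that mouse. Over the 8 mice *Irx5* and *Myh7* had a Pearson r of 0.66 (exact permutation p = 0.0836, 0.573 after adjustment), which was 0.49 without WT replicate 4 and C2-/- replicate 1, and a Spearman rho of 0.43 (exact permutation p = 0.299, 0.806 after adjustment).

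**Figure D4:**
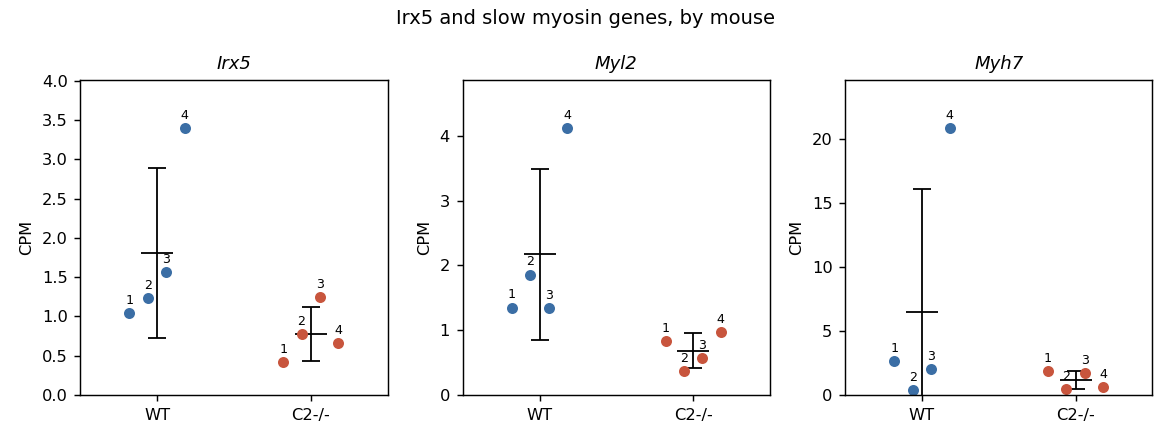
CPM of *Irx5*, *Myl2* and *Myh7* in the 4 WT (blue) and 4 C2-/- mice (red), with replicate numbers, the mean (wide bar) and the SD (whiskers, n = 4). The lower WT whisker of *Myh7* is cut at 0, and WT replicate 4 is the highest mouse in all 3 panels, at 3.402, 4.13 and 20.9 CPM.

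*Eya4* varied among the mice together with *Myh4*. Correlations of log2 CPM over the 8 mice were computed for the 8 tested regulators with 4 myosin heavy chain genes (32 relations, chosen after the data had been examined). *Eya4* and *Myh4* had a Pearson r of 0.96 (exact permutation p = 0.000124, 0.00397 after Benjamini-Hochberg adjustment over the 32) and a Spearman rho of 0.98 (exact permutation p = 0.000397, 0.0127 after adjustment). Both were lowest in WT replicate 1 and highest in WT replicate 4. The r was 0.96 without WT replicate 4 and C2-/- replicate 3, the 2 mice farthest from the median of *Eya4*, it was 0.96 for deviations from the genotype means, and with any single mouse left out its range was 0.938 to 0.980. Of the 12541 genes tested other than *Myh4*, 3 had an r with *Myh4* at or above that of *Eya4*, a count that includes *Eya4* itself. An r above 0.9 was found for 0.263% of them. None of the other 31 relations had an adjusted p under 0.05. *Tbx15* and *Myh4* came next, with an r of 0.79 (exact permutation p = 0.0209, 0.334 after adjustment) and a rho of 0.79 (exact permutation p = 0.0279, 0.447 after adjustment), and the r was 0.71 without WT replicates 1 and 2. *Eya4* with *Myh1* had an r of −0.01 and with *Myh2* one of −0.59, with an adjusted exact permutation p of 0.985 and 0.594.

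The 250 bases before a transcription start of *Eya4* and of *Myh4* are printed because the RNA of these genes varied together, and those of *Six4* because they hold the MEF3 letters that SIX-family proteins bind. The sequences are from RefSeq (GRCm38.p6) and read 5′ to 3′ on the strand of the gene, with capitals for matches to MEF3 (TCAGGTT), NFAT (GGAAA), SOX (AACAAT), an E-box (CAGCTG) or a T-box site (AGGTGTG), searched on both strands. A match of letters is a description of the sequence.
Eya4, chr10:23349944-23350193, minus strand: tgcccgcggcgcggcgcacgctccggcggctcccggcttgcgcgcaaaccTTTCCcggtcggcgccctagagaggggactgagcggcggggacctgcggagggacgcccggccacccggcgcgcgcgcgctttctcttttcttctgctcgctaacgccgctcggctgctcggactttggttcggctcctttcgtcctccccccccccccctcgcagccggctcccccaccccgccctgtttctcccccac
Myh4, chr11:67237562-67237811, plus strand: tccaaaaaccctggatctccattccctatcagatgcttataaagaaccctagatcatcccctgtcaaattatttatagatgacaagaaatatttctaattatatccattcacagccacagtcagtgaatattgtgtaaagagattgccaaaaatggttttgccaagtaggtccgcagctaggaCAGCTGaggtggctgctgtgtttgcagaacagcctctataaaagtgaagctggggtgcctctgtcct
Six4, chr12:73113246-73113495, minus strand: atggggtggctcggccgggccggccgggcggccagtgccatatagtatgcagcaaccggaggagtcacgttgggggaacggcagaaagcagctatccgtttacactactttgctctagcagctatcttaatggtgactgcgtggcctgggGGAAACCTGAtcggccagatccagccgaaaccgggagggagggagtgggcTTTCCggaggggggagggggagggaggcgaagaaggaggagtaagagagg
The *Eya4* start shown was rich in G and C, at 74.0% with 35 CpG dinucleotides. A second *Eya4* start in the table, at chr10:23349891-23350140, held 67.6% and 25 and none of the letters searched. The *Myh4* start held 42.0% and 1, and the median of all promoters was 52.4% and 6. Their matches differed as well, with NFAT letters 200 bases before the *Eya4* start shown and an E-box 67 bases before that of *Myh4*. In *Six4* the MEF3 letters began 97 bases before the start and overlapped an NFAT match that began 100 bases before it. Among all 32851 promoters of 300 bases, 4.07% held MEF3, 61.3% NFAT, 10.7% SOX, 16.3% the E-box and 5.84% the T-box letters. Of the 9 regulators, 5 (*Six4*, *Eya4*, *Sox6*, *Irx3* and *Prox1*) had promoters in the table, 13 in all. MEF3 was in 2 of these 13, 1 each of *Six4* and *Sox6*. NFAT was in 12 of the 13, counted over 300 bases that run 50 bases past the start. Over the same length it was in 64.7% of the promoters of the fast-fibre genes and in 75.0% of those of the slow-fibre genes. In the 250 bases before the start it was in 11 of the 13, and the share of all promoters was not computed for that length. The 13 are not independent, because some genes gave several starts and those of *Eya4* and of *Six4* overlap. Whether the regulators differ from other genes in NFAT letters was not tested.

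Among the regulators themselves, 28 pairs were compared, and 0 had an adjusted p under 0.05. Before adjustment, 2 pairs had an exact permutation p under 0.05. *Eya4* and *Tbx15* had a Pearson r of 0.79 (exact permutation p = 0.0238, 0.426 after adjustment) and a Spearman rho of 0.86 (exact permutation p = 0.0107, 0.300 after adjustment), with an r of 0.61 without WT replicate 4 and C2-/- replicate 3. *Tbx15* and *Sox6* had an r of 0.78 (exact permutation p = 0.0304, 0.426 after adjustment) and a rho of 0.69 (exact permutation p = 0.0694, 0.449 after adjustment), with an r of 0.44 without WT replicates 1 and 2. For deviations from the genotype means, *Eya4* and *Irx5* had an r of 0.93. For log2 CPM without this centring, their r was 0.50 over all 8 mice and 0.04 without WT replicate 4 and C2-/- replicate 3. The r of the deviations without these mice is not given.

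*Sox6* moved with the length of the RNAs that each library held. The tested genes with at least 1 TPM in every mouse were ordered by relative length, and for each mouse the median log2 deviation of the 3288 shortest was subtracted from that of the 3283 longest, with the 9 regulators and *Myh4* left out. This length tilt was −0.160, −0.261, 0.210 and 0.108 in WT replicates 1 to 4 and −0.150, 0.109, 0.012 and 0.144 in C2-/- replicates 1 to 4. Long RNAs were thus lower in WT replicates 1 and 2 and C2-/- replicate 1 than in the other mice, and the difference between the genotypes did not pass the test (−0.026 ± 0.221 against 0.029 ± 0.131, SD, n = 4, two-sided exact permutation p = 0.657). *Sox6*, longer than 97.6% of these genes, had a Pearson r of 0.96 with the tilt (exact permutation p = 0.000248, 0.00298 after adjustment over 12 relations) and a Spearman rho of 0.93 (exact permutation p = 0.00223, 0.0268 after adjustment), and an r of 0.91 without the 2 mice farthest from the median tilt. Only 0.175% of the genes tested had an r with the tilt as high as that of *Sox6*. The tilt and its 12 relations were chosen after the values had been seen, which the adjustment does not cover. *Tbx15* had an r of 0.85 (exact permutation p = 0.0116, 0.0697 after adjustment), and *Eya4* one of 0.55 (exact permutation p = 0.157, 0.270 after adjustment). After the tilt was regressed out of both genes, *Tbx15* and *Sox6* had an r of −0.26 in place of 0.78, and *Eya4* and *Myh4* one of 0.95 in place of 0.96. With an r of 0.96 between *Sox6* and the tilt, little variation of *Sox6* was left for the first of these. The cause of either relation was not tested.

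**Figure D5:**
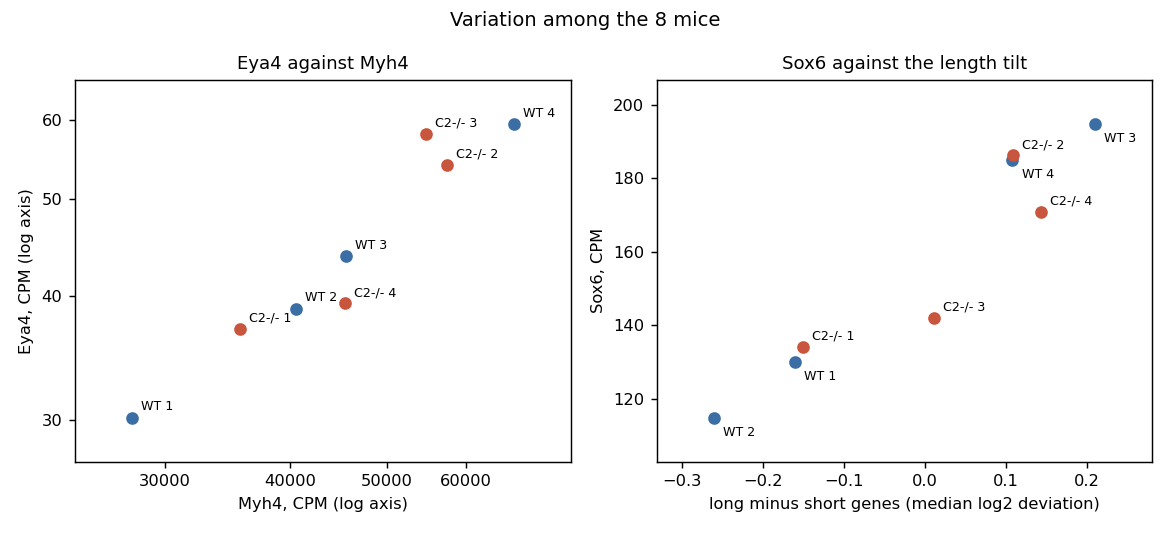
Left, CPM of *Eya4* against CPM of *Myh4* on log axes, 1 point per mouse (WT blue, C2-/- red); right, CPM of *Sox6* against the length tilt of each library. The mice of both genotypes lie along the same course in each panel, with a Pearson r of 0.96 in both on the log2 scale of CPM.

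The gene with the most similar course over the 8 mice was named for each regulator, by the highest Pearson r of log2 CPM among all genes tested, as a description over 8 mice without a test. It was *Paqr8* for *Six4* (0.96), *Ubox5* for *Eya1* (0.93), *Atl2* for *Eya4* (0.97), *Cdk19* for *Tbx15* (0.99), *Anapc1* for *Sox6* (0.97), *Zfp592* for *Nfatc1* (0.94), *Acot9* for *Irx3* (0.97) and *R3hdm1* for *Irx5* (0.97). *Myh4* was the third gene in the order for *Eya4*.

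In 13 other regulators of fibre type (Maf, Mef2, Tead, myogenic and related factors), 6 were higher and 7 lower, and 0 had an unadjusted p under 0.05. *Vgll2*, a Tead cofactor, was at 294, 614, 222 and 204 CPM in WT and at 321, 160, 168 and 242 CPM in C2-/- mice, a log2 fold change of −0.58 (SE 0.36) that was −0.10 without WT replicate 2. *Mef2d* had one of −0.19 (SE 0.12) and *Hdac5*, a class IIa histone deacetylase, one of −0.16 (SE 0.10). The mouse that decided *Vgll2* was the one that was highest in *Irx3*.

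Markers of other cells were compared because the muscle was sequenced whole. Of 4 fibro-adipogenic markers 4 were higher in C2-/- mice, and 2, *Dpt* and *Dcn*, had an unadjusted p under 0.05 and did not overlap between the genotypes (5.29% and 3.38% of all genes tested), with summed levels of 223 to 303 CPM in WT and 320 to 369 CPM in C2-/- mice. The log2 fold change was 0.48 (SE 0.14) for *Dpt*, 0.32 (SE 0.13) for *Dcn* and 0.37 (SE 0.19) for *Pdgfra*, and no adjusted p was under 0.05. *Dcn* had an unadjusted edgeR p of 0.0645 without WT replicate 4, of 0.0733 without C2-/- replicate 2 and of 0.0567 without C2-/- replicate 3. Without the 3 mice with high *Fos* its log2 fold change was 0.18 (edgeR unadjusted p = 0.218) and that of *Pdgfra* 0.15. Among the others, an unadjusted p under 0.05 was found for 0 of 4 adipocyte markers (2.39 to 9.56 CPM in WT and 4.77 to 15.8 CPM in C2-/- mice), 0 of 4 blood endothelial markers (198 to 287 and 193 to 259 CPM), 0 of 3 Schwann cell markers (16.6 to 34.3 and 11.9 to 23.3 CPM) and 0 of the 3 tested of 4 satellite cell markers (1.42 to 2.73 and 1.44 to 3.68 CPM). Of the 4 adipocyte markers 3 were higher in C2-/- mice and 1 was lower, with a median log2 fold change of 0.75. The log2 fold change was 0.93 (SE 0.42) for *Adipoq*, 0.76 (SE 0.51) for *Plin1* and 0.73 (SE 0.45) for *Cidec*. That of *Adipoq* was 0.55 without C2-/- replicate 3. Of 7 immediate early genes 7 were lower in C2-/- mice and 0 had an unadjusted p under 0.05, with summed levels of 370 to 1881 CPM in WT and 287 to 1269 CPM in C2-/- mice. Among all 12542 genes tested, 6804 were lower. The 7 are not independent, as *Fos*, *Junb* and *Atf3* were each highest in the 3 mice with high *Fos*. Without those mice the log2 fold change was 0.26 for *Atf3*, −0.21 for *Junb* and −0.53 for *Nr4a1*. The part of these cells and of the immediate early genes in the levels of the regulators was not tested.

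The counts of some regulators may include reads of other transcripts. The table gives a strand opposite to that of GENCODE vM21 for 4 of the 9, *Sox6*, *Nfatc1*, *Irx3* and *Prox1*, and for 7 of the 9 it joins transcripts that do not come from RefSeq, *Six4* and *Irx5* being the 2 with RefSeq transcripts alone. Its interval for *Irx3*, 91798511 to 91807540 on chromosome 8, is 9.0 kb long and covers the antisense gene *Irx3os* (91800415 to 91807539, plus strand) as well as *Irx3* itself (91798525 to 91802067, minus strand). Because counting by strand is not stated, reads of *Irx3* and *Irx3os* cannot be told apart. The table interval of *Sox6* also reaches into a protein-coding gene on the plus strand, *1110004F10Rik* (116039397 to 116105210 on chromosome 7). Antisense genes also overlap the intervals of *Prox1*, *Sox6*, *Nfatc1* and *Tbx15*.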

How the data were processed

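TA muscles of 4 WT and 4 C2-/- male mice were sequenced as 1 library each. The authors aligned the reads to GRCm38.p6 with HISAT, and the methods name featureCounts for counting, while the processing notes of the submitters also name Bowtie2 and DESeq2. The authors deposited expected counts per gene without normalization, of which between 5.50% and 6.53% per mouse were not whole, and TPM values per gene, scaled for length and depth. The fold changes, p-values and averages of the authors in the same table and 8 FPKM columns were not used. The strand setting of the counting is not given in the sources used here.

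The expected counts were rounded, scaled by TMM (factors 0.929 to 1.03) and tested with edgeR 4.0.16 in R 4.3.3 (quasi-likelihood test, default filter on low counts, Benjamini-Hochberg adjustment over 12542 genes) between the genotypes. TPM was used only to order levels between genes. Correlations used log2 CPM with a prior count of 2 and exact permutations of the 8 mice. Alternatives were other scalings, limma 3.58.1, DESeq2 1.42.0, no filter, a replicate block and each mouse left out. The edgeR test was checked on simulated counts, and the exact tests were checked only on short number series with a known p. The SE of a fold change covers these mice, and a floor of 3 counts covers counting error only.

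The 9 regulators and all gene lists were chosen with earlier results of these data known. Genes named are the 9 regulators, up to 3 genes of each list with the smallest unadjusted p, *Myh4*, *Myh1*, *Myh2*, *Myh7*, *Mybpc2* and the gene most similar to each regulator. *Fos*, *Irx1*, *Irx2*, *Mylpf*, *Irx3os* and *1110004F10Rik* fall outside this rule, and they, the relations with the myosins, the length tilt and the fit without the mice with high *Fos* were chosen after the values were seen. Some listed genes are not reported here and were left out of their lists. In addition, 24 gene symbols were restored from gene IDs. Relative gene length was read from the ratio of CPM to TPM in genes with at least 1 TPM in every mouse.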

Additional observations from a re-analysis of the deposited data

Results flagged for a closer look

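In groups of 4 mice, a value was marked when the gap between the highest or lowest mouse and its nearest neighbour, divided by the range of the group, was above Dixon's 95% critical value. Of 108 combinations of gene and genotype, 11 were marked, where chance marks about 1 in 20, and none of the 11 was one of the 9 regulators. In WT mice, *Myh7* in replicate 4 was at 20.9 CPM against 0.365 to 2.62 in the other 3, *Pecam1* in replicate 4 at 52.3 CPM against 70.6 to 73.6, *Mef2d* in replicate 1 at 436 CPM against 488 to 489, *Ccl21a* in replicate 1 at 10.4 CPM against 1.35 to 1.68 and *Adipoq* in replicate 1 at 0.771 CPM against 2.43 to 2.74. In C2-/- mice, *Mybpc2* in replicate 3 was at 38.4 CPM against 3.85 to 4.35, *Sox5* in replicate 3 at 1.21 CPM against 0.446 to 0.52, *Ppp3cc* in replicate 1 at 29.0 CPM against 24.2 to 24.8, *Atf3* in replicate 2 at 13.98 CPM against 2.01 to 3.44, *Junb* in replicate 2 at 156 CPM against 16.1 to 20.9 and *Ckm* in replicate 2 at 19570 CPM against 22240 to 22720.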

How the results depend on the processing

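The 9 regulators gave 0 adjusted p under 0.05 in each of 16 alternatives. Before adjustment, 1 had a p under 0.05 under every scaling, tool and filter, between 0 and 2 did with single mice left out, and 0 did without the 3 mice with high *Fos*. Over all genes the adjusted count was 4, but 39 with the DESeq2 Wald test, 2 without the mice with high *Fos* and 4 to 7 with single mice left out, and the unadjusted count of 663 ranged from 506 to 983 with single mice left out. For deviations from the genotype means, 1 pair of regulators, *Eya4* and *Irx5*, passed adjustment. Such deviations sum to 0 within each genotype, so a permutation over all 8 mice is not exact for them. Without the centring, the pair had an r of 0.50 (exact permutation p = 0.205, 0.587 after adjustment). The causes were not tested.

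The sign of small fold changes depended on the mice. With single mice left out, the log2 fold change lay between −0.0071 and 0.34 for *Eya4*, −0.0064 and 0.16 for *Tbx15*, −0.095 and 0.15 for *Sox6* and −0.10 and 0.35 for *Irx3*, and between −0.08 and 0.36 for *Myh4*, −0.49 and 0.037 for *Myh2*, −0.014 and 0.32 for *Casq1*, −0.074 and 0.0001 for *Des*, −0.13 and 0.27 for *Pax7*, −0.010 and 0.64 for *Lyve1*, −1.03 and 0.75 for *Ccl21a*, −0.21 and 0.075 for *Kdr*, −0.069 and 0.17 for *Tie1*, −0.031 and 0.25 for *Six5* and −0.14 and 0.59 for *Sox10*. With quality weights in limma-voom it was −0.023 for *Tbx15*, −0.051 for *Sox6*, −0.026 for *Casq1* and −0.16 for *Pax7*. Without the mice with high *Fos* it was −0.12 for *Sox6*, 0.034 for *Atp2a1*, 0.26 for *Atf3*, 0.039 for *Acta1*, 0.018 for *Ckm*, 0.0043 for *Des*, −0.14 for *Pax7*, −0.014 for *Sox10* and −0.30 for *Tie1*, and that of *Des* was 0.0072 by library size alone.

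Replicate numbers 1 to 4 are shared by both genotypes in the labels, but they are different mice. The deviations of same-numbered mice from the genotype means correlated at 0.267, 0.042, −0.051 and 0.021 for replicates 1 to 4. By these deviations the C2-/- mouse most like WT replicate 1 was C2-/- replicate 1, and the other numbers did not match in this way. Whether the mice numbered 1 share a factor was not tested. With the replicate block, 1 regulator had an unadjusted p under 0.05 (*Irx5*, log2 fold change −1.16) and 0 an adjusted one, and the counts over all genes were 660 and 4. Among the other genes named, *Myh7* lost its unadjusted p under 0.05 (0.148), and *Myh1* (0.0196), *Adipoq* (0.011), *Plin1* (0.0293), *Mbp* (0.0116) and *Pdgfra* (0.036) gained one, all by edgeR with the block. The smallest exact p that 4 mice against 4 allow is 0.0286, and the levels of *Irx5* and *Prox1* rest on few counts.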
